A study of Mus musculus with 7 samples.

Results

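This account describes the transcripts of the mitochondrial ribosomal proteins in epididymal white adipose tissue of mice that overexpress XBP1. The genes were chosen by name: a symbol of Mrpl or Mrps followed by a number, on a probe set that the array annotation pairs with exactly 1 symbol, with the probe set of highest mean kept for each gene. That gave 77 genes of 19938, 48 of the large subunit (Mrpl) and 29 of the small subunit (Mrps). The rule uses names and mean levels and no difference between genotypes, but it was set with earlier results of these data known.

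The fat pads were taken at 17 weeks from chow-fed males on the C57Bl/6J background, 4 wild type and 3 carrying the aP2-XBP1 transgene. XBP1 switches on genes of the unfolded protein response, which the cell mounts when proteins misfold in the endoplasmic reticulum. The aP2 promoter is that of Fabp4, which is active in adipocytes and also in macrophages, so the transgene need not be limited to fat cells. Each sample went on 1 array, and the values are log2 expression after RMA. Nothing in the labels ties each replicate to an animal of its own. A p-value here therefore reflects only how these samples spread, which can include technical variation. Whole tissue was measured, and fewer cells of a type cannot be told apart from less RNA per cell.

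Mitochondria have ribosomes of their own, descended from those of bacteria. They translate the few messengers of mitochondrial DNA, which encode core subunits of the respiratory chain and ATP synthase, and all their proteins are encoded in the nucleus, made in the cytosol and imported. The small subunit reads the messenger, the large subunit joins the amino acids, and each combines proteins with a bacterial counterpart and proteins that arose in mitochondria. White adipocytes need mitochondria for fatty acid synthesis, glycerol supply and oxidation, and mitochondrial content is known to increase as adipocytes differentiate.

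Promoter sequence is shown here as a description of these genes, which sit in different places of the genome. Whether any motif bears on the difference between genotypes was not tested. Of the 77 genes, 68 matched the RefSeq promoter table (GRCm38.p6), with 74 windows from 250 bases before to 50 after the start. On either strand, the letters CCGGAAG, the core bound by ETS factors such as GABP, stood in 33.8% of these windows, against 8.86% of all 32851 windows and 12.1% of the 19177 windows of genes on the array. The letters AANATGGC, the core of YY1 (in Mrps12 on the other strand), stood in 28.4% against 6.05% of all windows and 6.51% for genes on the array. For NRF1, searched by its palindromic consensus, whose match in Mrpl9 is printed in capitals, the shares were 17.6%, 4.60% and 6.91%. GGGCGG, the box of the SP family, stood in 52.7%, 35.7% and 49.2%. Letters were also searched for ESRRA (TCAAGGTCA), the XBP1 element UPRE (TGACGTGG) and the ER stress element ERSE. They were found in 0 of the 74 windows. Their shares were 0.423%, 0.676% and 0.119% of all windows and 0.297%, 0.777% and 0.115% for genes on the array. At shares this low 0 matches are likely in 74 windows of any genes, so no conclusion is drawn from them. The motifs were searched separately and may overlap. The windows of these genes had a median GC content of 58.5%, against 52.7% for all windows and 57.3% for genes on the array. A match of letters is a description of the sequence and not a bound site.
The 250 bases before the start are printed 5′ to 3′ for the gene of smallest limma p that holds each of 3 motifs there, 1 gene a motif, with the motif in capitals. They are from chr3:94443086-94443335 (plus strand, NRF1) for Mrpl9, chr17:12916092-12916341 (minus strand, ETS) for Mrpl18 and chr7:28741822-28742071 (minus strand, YY1) for Mrps12.
Mrpl9: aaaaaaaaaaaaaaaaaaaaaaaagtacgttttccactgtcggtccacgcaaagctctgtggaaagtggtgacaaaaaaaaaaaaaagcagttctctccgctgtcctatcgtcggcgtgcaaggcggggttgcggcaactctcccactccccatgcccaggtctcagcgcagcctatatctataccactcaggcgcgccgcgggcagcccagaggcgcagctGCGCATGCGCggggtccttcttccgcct
Mrpl18: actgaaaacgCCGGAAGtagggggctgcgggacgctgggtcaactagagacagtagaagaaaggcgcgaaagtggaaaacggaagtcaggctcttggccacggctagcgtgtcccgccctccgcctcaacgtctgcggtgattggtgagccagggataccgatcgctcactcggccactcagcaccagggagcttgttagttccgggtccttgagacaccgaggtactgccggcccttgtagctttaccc
Mrps12: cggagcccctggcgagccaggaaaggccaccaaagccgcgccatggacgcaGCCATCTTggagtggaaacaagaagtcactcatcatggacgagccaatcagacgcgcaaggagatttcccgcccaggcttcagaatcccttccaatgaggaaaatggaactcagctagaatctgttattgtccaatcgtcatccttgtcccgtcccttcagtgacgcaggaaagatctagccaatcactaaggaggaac
In Mrpl9 the capitals begin 28 bases before the start, in Mrpl18 240 bases and in Mrps12 199 bases before it.

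Xbp1 itself read 8.90, 9.07, 8.94 and 9.19 in the wild type libraries and 9.76, 9.99 and 9.66 in the transgenic libraries, so that the groups did not overlap. Fabp4 and the other adipocyte markers were strongly expressed in all 7 libraries, and the mean log2 level of the 8 markers was 10.6 to 11.4 in wild type and 11.3 to 11.5 in transgenic fat. It was lowest in wild type replicate 1. Wild type replicates 1, 3 and 4 also carried the epididymal transcripts Serpina1f, Spink8 and Defb42, which were far lower in the other 4 libraries (Spink8 read 8.82, 8.89 and 9.51 there, 2.45 in the second wild type library and at most 2.89 in transgenic fat). The other 5 measured epididymal markers were at most 4.69 in every library, and Lcn5 differed by 0.36. The mean of the 6 smooth muscle markers was 9.84, 7.31, 9.84 and 10.4 in wild type replicates 1 to 4 and 6.74 to 7.40 in transgenic fat, with Acta2 differing by -1.25. The mean of the 5 macrophage markers was 7.93 to 9.75 in wild type and 8.42 to 8.74 in transgenic fat, with Cd68 differing by -0.94. All 4 endothelial markers had a higher transgenic mean, with Pecam1 differing by 0.20. Of the 5 fibroblast markers 2 were higher and 3 lower, with Pdgfra differing by -0.16 and Dcn by 0.03. Col1a1, named after its values were seen, differed by -0.72. It read 11.68, 10.18, 11.35 and 9.50 in wild type and 9.65, 10.03 and 10.18 in transgenic fat. The part of these cell types in the results below was not tested, and results are also given against wild type replicate 2 alone.

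Most genes of the mitochondrial ribosome had slightly higher values in transgenic fat, and 0 passed the test. The mean was above that of wild type for 66 of the 77 genes, or 85.7%, where 53.6% of all probe sets tested had a higher mean. The median log2 difference of the 77 was 0.11, a fold of 1.08, against a median of 0.01 over all probe sets. Of the 77 genes 0 passed a limma adjusted p of 0.05, where 0.0% of all probe sets did. Adjusted p-values of the 77 began at 0.622. At an unadjusted limma p under 0.05, 13 were higher and 0 lower, against 4.82% and 3.12% of all probe sets. All 3 transgenic values lay above all 4 wild type values for 11 genes, where 3.38% of all probe sets did so. They lay below for 0 genes, where 2.44% of all probe sets did so. The genes were measured in the same 7 libraries and are not independent of each other, so the counts describe these libraries. For 29 of the 77 genes the difference was smaller than its own SE, and for 31 it was larger than the SD of either group.

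**Figure D1:**
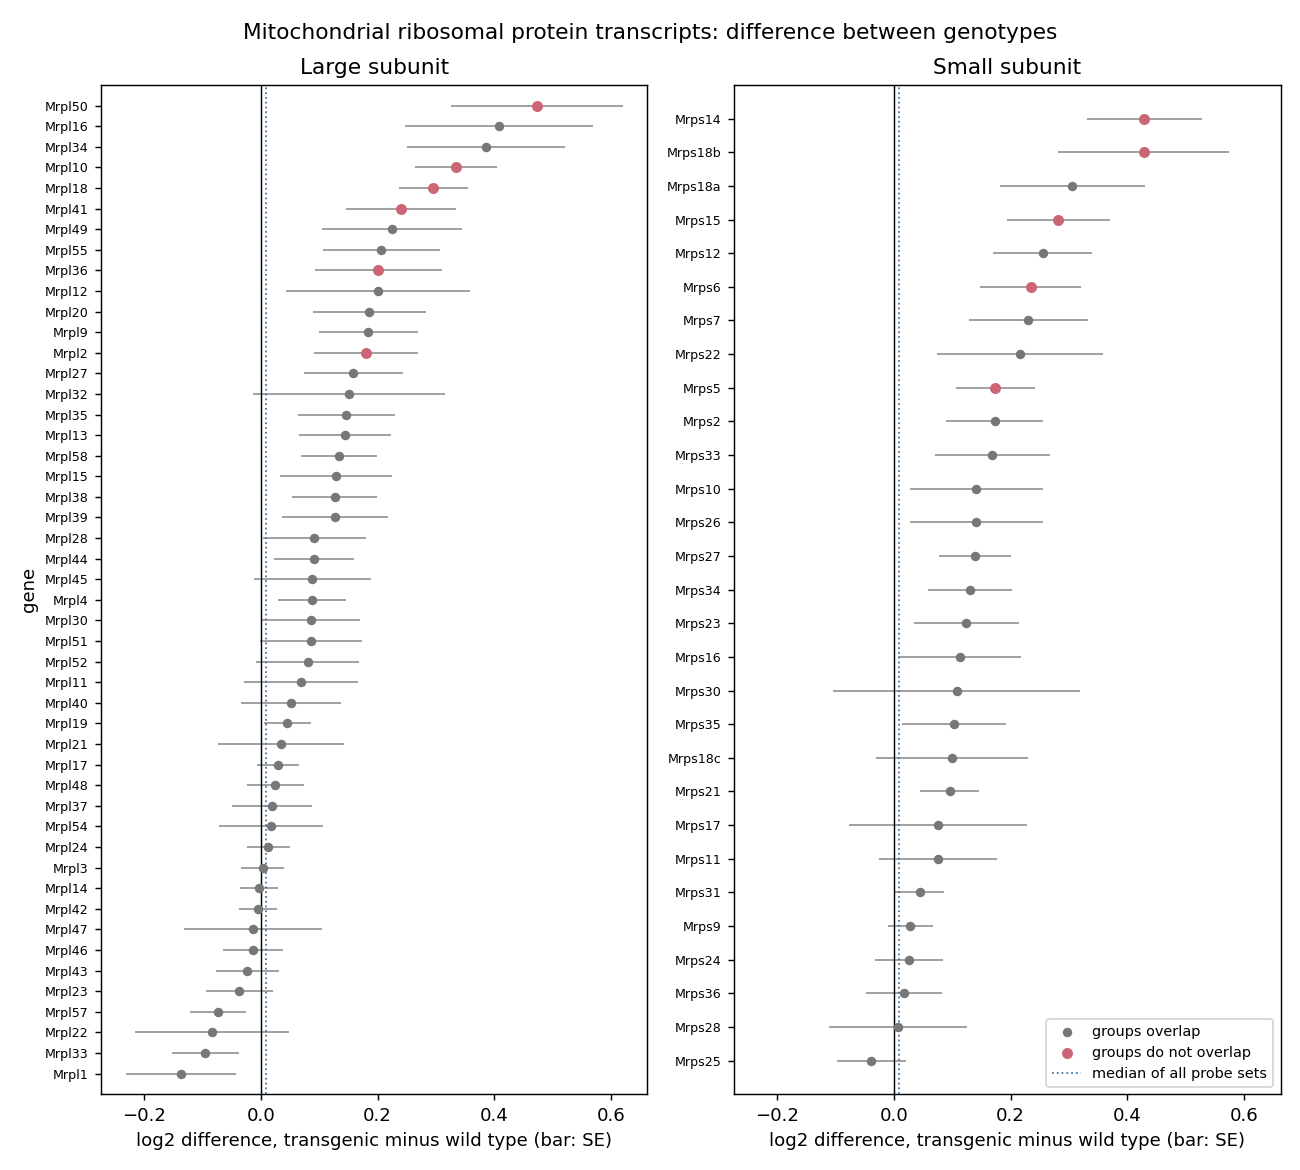
Log2 difference between transgenic and wild type fat for each of the 48 large and 29 small subunit genes, with bars of 1 SE and the median of all probe sets as a dotted line. Coloured points are the 11 genes whose groups do not overlap, and the differences run from -0.14 for Mrpl1 to 0.47 for Mrpl50.

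In the large subunit 38 of 48 genes had a higher transgenic mean, with a median difference of 0.09. The range ran from -0.14 to 0.47. Groups that did not overlap were found for 6 genes, all higher, where 3.38% of all probe sets were higher and 2.44% lower in this way. Mrpl18, a protein of the central protuberance at the top of the subunit, had the smallest p. Its log2 values were 8.03, 7.95, 8.00 and 8.08 in wild type replicates 1 to 4 and 8.21, 8.39 and 8.32 in transgenic replicates 1 to 3. Every transgenic library was above every wild type library, with a difference of 0.30 (SE 0.06), 1.23-fold, and an exact two-sided permutation p = 0.0286, the smallest p that 4 against 3 libraries can give. It ranked 35 of 21789 probe sets by limma's p and did not pass (adjusted p = 0.622). Mrpl10 carries the stalk that recruits translation factors. It read 7.11, 7.12, 7.27 and 7.04 in wild type and 7.39, 7.45 and 7.57 in transgenic fat, a difference of 0.33 (SE 0.07) with no overlap and the same exact permutation p = 0.0286. The stalk protein that it anchors, Mrpl12, behaved less evenly. Its values were 6.27, 6.03, 6.08 and 5.87 in wild type and 6.10, 6.08 and 6.61 in transgenic fat. Only transgenic replicate 3 stood above the wild type range, and the difference of 0.20 (SE 0.16) was 0.03 without that library.

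Mrpl50, a protein with no bacterial counterpart, had the largest difference of the subunit. The wild type values were 5.63, 6.23, 6.04 and 6.11 and the transgenic values 6.36, 6.50 and 6.57. The difference was 0.47 (SE 0.15), 1.39-fold, and 0.35 without wild type replicate 1, which was far below the other wild type libraries. Mrpl34, a small protein of bacterial ancestry, read 5.71, 5.61, 5.78 and 5.66 in wild type and 5.78, 6.07 and 6.37 in transgenic fat. Transgenic replicate 1 had the same value as wild type replicate 3 there, so the difference of 0.39 (SE 0.14) rested on transgenic replicates 2 and 3 and was 0.24 without the latter. Mrpl41, another mitochondria-specific protein, read 7.02, 7.27, 7.03 and 7.27 in wild type and 7.27, 7.51 and 7.38 in transgenic fat. Its groups were separated only by the third decimal, at 7.2656 and 7.2666, and the difference was 0.24 (SE 0.09). Mrpl2 and Mrpl36, named after their values were seen, complete the 6 genes without overlap, with differences of 0.18 and 0.20. Mrpl16, also named after its values were seen, differed by 0.41 (SE 0.16) with overlapping groups.

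Among the 10 large subunit genes with a lower transgenic mean, no difference reached an unadjusted p of 0.05. Mrpl1, the counterpart of the bacterial stalk protein at the exit site, read 5.89, 5.98, 5.90 and 6.15 in wild type and 5.78, 5.73 and 6.01 in transgenic fat, a difference of -0.14 (SE 0.09). For Mrpl33 the values were 5.68, 5.54, 5.54 and 5.54 in wild type and 5.49, 5.54 and 5.41 in transgenic fat, and the difference was -0.09 (SE 0.06). Mrpl57, specific to mitochondria, differed by -0.07 (SE 0.05). All 3 had overlapping groups. The 30 large subunit genes with a bacterial counterpart had a median difference of 0.11, and the 18 without had 0.08.

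In the small subunit 28 of 29 genes had a higher transgenic mean, with a median difference of 0.13 and a range from -0.04 to 0.43. Groups did not overlap for 5 genes, all higher, where 3.38% of all probe sets were higher and 2.44% lower in this way. Mrps14, a protein of the subunit's head, read 6.04, 5.89, 5.82 and 6.06 in wild type and 6.20, 6.53 and 6.41 in transgenic fat. All 3 transgenic libraries were above all 4 wild type libraries, with a difference of 0.43 (SE 0.10), 1.35-fold, an exact permutation p = 0.0286 and a limma adjusted p = 0.622. Mrps15 read 8.57, 8.85, 8.63 and 8.77 in wild type and 8.91, 8.93 and 9.11 in transgenic fat. Wild type replicate 2 came close to the transgenic libraries, and the difference was 0.28 (SE 0.09). Mrps6 read 8.25, 8.43, 8.17 and 8.50 against 8.56, 8.56 and 8.59, so that the transgenic values were nearly equal and the wild type values spread over 0.33. Its difference was 0.23 (SE 0.09), and that of Mrps5, named after its values were seen, was 0.17.

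Mrps12, at the decoding centre, is a small subunit protein conserved since bacteria. Its values were 4.78, 4.63, 4.67 and 4.80 in wild type and 4.80, 5.03 and 5.09 in transgenic fat. Transgenic replicate 1 equalled wild type replicate 4, and the difference was 0.25 (SE 0.08). The single gene of this subunit with a lower transgenic mean was Mrps25, whose difference of -0.04 (SE 0.06) turned to 0.00 when arrays were quantile normalized again or given a common median. The 17 small subunit genes with a bacterial counterpart all had a higher transgenic mean, with a median difference of 0.17 and all 5 genes without overlap. Those specific to mitochondria were higher in 11 of 12, with a median of 0.12 and 0 genes without overlap. Over all probe sets 3.38% were higher without overlap, so 0 is likely in 12 of any genes. The classes follow the symbols, so the 17 include Mrps18a and the 12 include Mrps30 and Mrps36, which are placed elsewhere below. The difference between these classes was not tested.

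The bacterial protein S18 has 3 descendants in mammals, and they did not differ alike. Mrps18b read 7.35, 7.27, 7.33 and 7.21 in wild type and 7.40, 8.04 and 7.72 in transgenic fat, a difference of 0.43 (SE 0.15), 1.35-fold, with no overlap. Transgenic replicate 1 was barely above the wild type range and replicate 2 far above it, and without replicate 2 the difference was 0.27. Mrps18a, which by its symbol counts here as small although it sits in the large subunit, read 6.74, 6.61, 6.60 and 6.74 in wild type and 6.67, 7.11 and 7.15 in transgenic fat. Again transgenic replicate 1 lay among the wild type libraries, and the difference was 0.31 (SE 0.12). Mrps18c read 7.34, 7.79, 7.78 and 7.86 against 7.80, 7.79 and 7.79. Its difference of 0.10 (SE 0.13) was -0.02 without wild type replicate 1, the lowest library. No test was made between the 3 genes.

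Mrps30, another protein that sits in the large subunit despite its symbol, had the widest wild type range of the small subunit list. It read 5.26, 6.06, 5.50 and 5.36 in wild type and 5.53, 5.53 and 5.91 in transgenic fat. Wild type replicate 2 was above all transgenic libraries, so the difference of 0.11 (SE 0.21) became -0.41 with that library as the only control and -0.38 with the epididymal markers as a covariate. Placing Mrps18a and Mrps30 with the large subunit and leaving out Mrps36, a protein since assigned to a dehydrogenase complex, gave medians of 0.09 for the large and 0.13 for the small subunit.

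**Figure D2:**
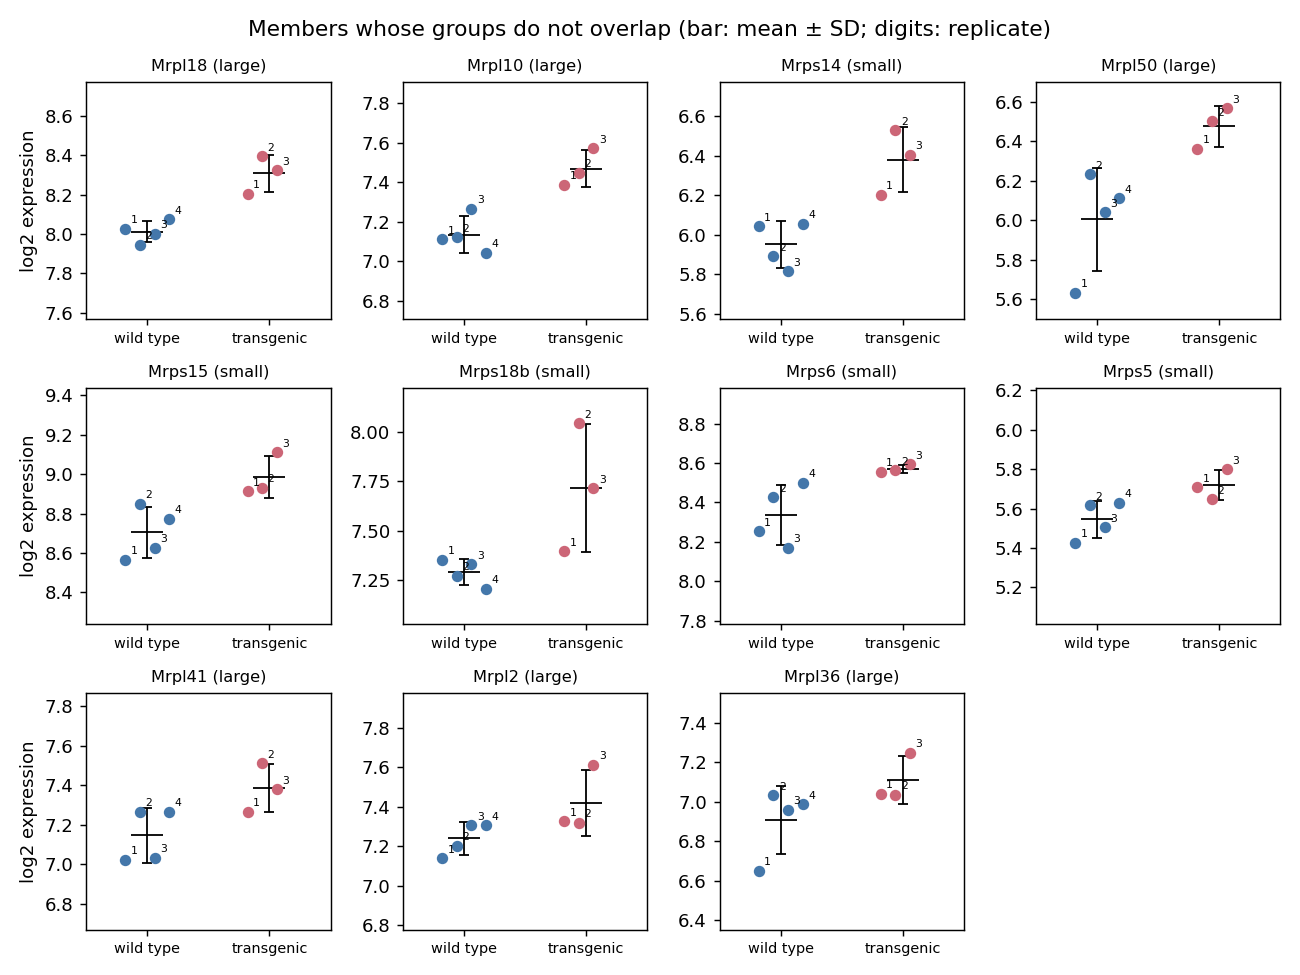
Log2 expression of the 11 genes whose transgenic values all lie above their wild type values, in order of limma p, with each library as a numbered point, the mean as a bar and the SD as whiskers. The panels share one span of the log2 axis, and Mrps14, Mrpl50, Mrpl18 and Mrpl10 have the widest gaps while Mrpl2, Mrpl36 and Mrpl41 have almost none.

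The libraries did not contribute equally. Transgenic replicate 3 alone had the highest value for 38 of the 77 genes, or 49.4%, where it did so for 15.4% of all genes. Wild type replicate 1 alone had the lowest value for 29 genes, or 37.7%, against 19.9% of all genes. Set against the 4 wild type libraries together, transgenic replicate 3 lay above all of them for 45 genes and below for 2, replicate 2 above for 32 and below for 5, and replicate 1 above for 19 and below for 7. The shares above were 58.4%, 41.6% and 24.7%, and over all probe sets 20.4%, 17.8% and 20.7%. The shares below were 2.60%, 6.49% and 9.09%, and over all probe sets 15.8%, 15.6% and 12.9%. Transgenic replicate 1 was thus close to the shares of all probe sets and replicate 3 far from them. Each gene's values minus its mean over the 7 libraries had medians of -0.06, -0.00, -0.02 and -0.01 in wild type replicates 1 to 4 and 0.01, 0.03 and 0.13 in transgenic replicates 1 to 3.

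**Figure D3:**
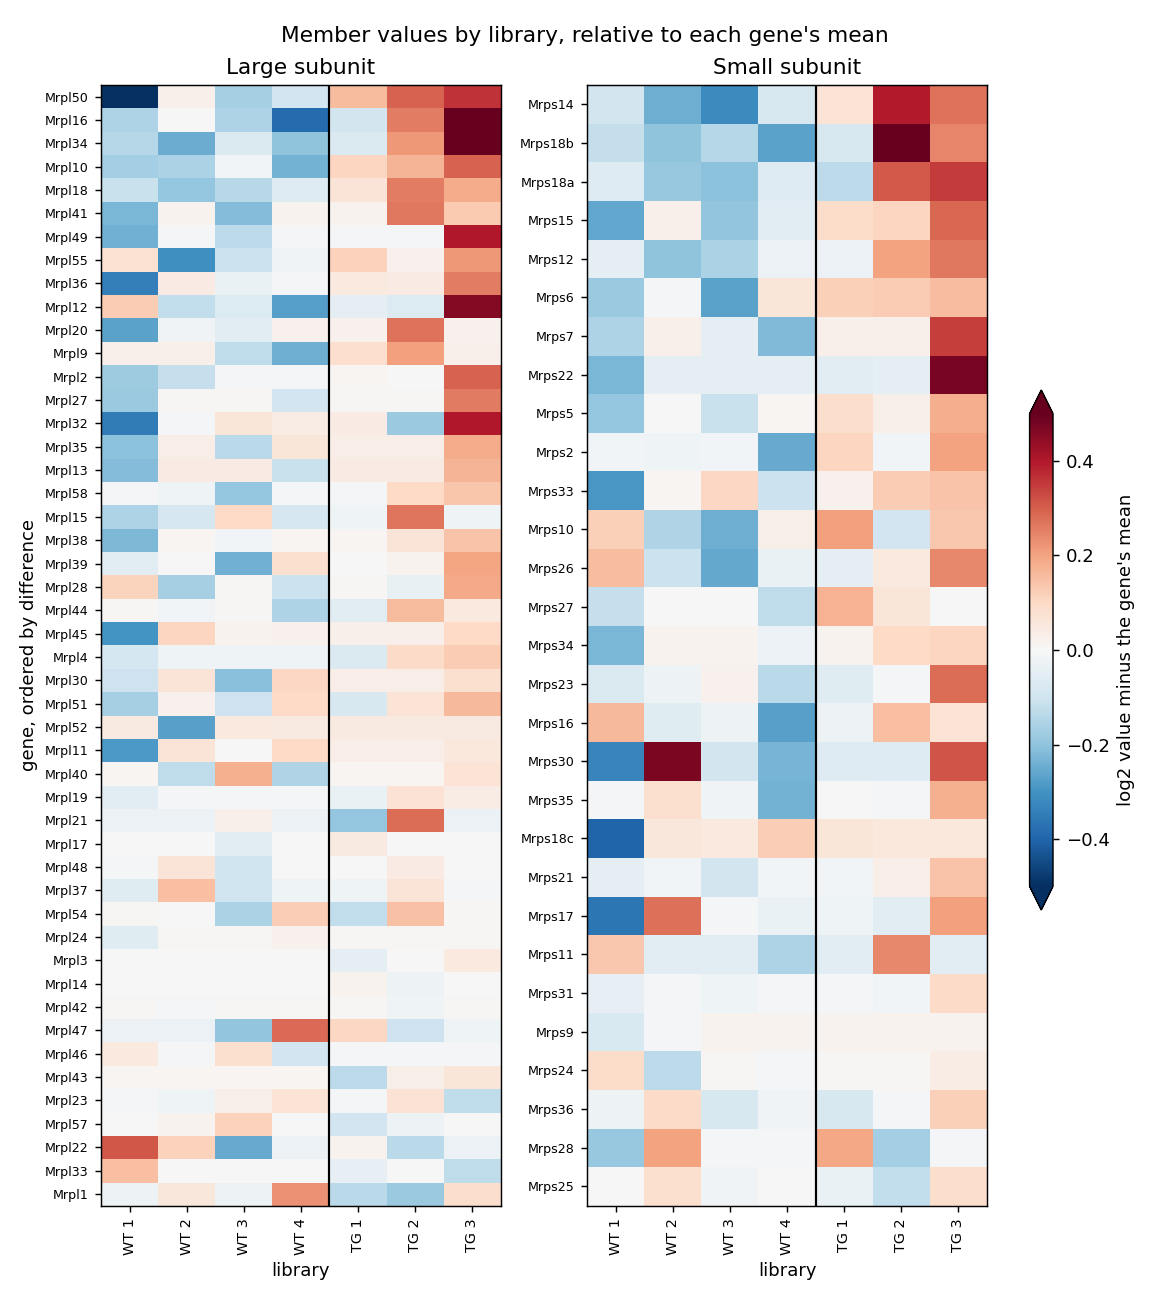
Log2 value of each gene in each library minus that gene's mean over the 7 libraries, with genes ordered by the difference between genotypes and the colour scale clipped at 0.5 either way. Transgenic replicate 3 is red for most genes (66 of 77 above their own mean) and wild type replicate 1 is blue for most (20 of 77 above).

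Leaving out single libraries changed the size more than the direction. Without transgenic replicate 3 a higher mean was found in 62 of 77 genes, where 52.9% of all probe sets had one, and the median difference was 0.06. Groups without overlap then numbered 13 higher and 3 lower, against 6.78% and 4.81% of all probe sets. Without wild type replicate 1 the count was 63 higher, against 54.9% of all probe sets, with a median difference of 0.10, and 13 genes higher and 0 lower without overlap, against 4.99% and 3.27%. Without wild type replicate 2 it was 65 higher, against 53.3%, with 15 higher and 0 lower without overlap, against 8.23% and 5.58%, and 0 of the 77 passed a limma adjusted p of 0.05, where 0.418% of all probe sets did. Without transgenic replicate 1 it was 66 higher, against 50.6%, with 24 higher and 0 lower without overlap, against 8.17% and 6.21%. Against wild type replicate 2 alone, 58 genes were higher and 18 lower, with 52.1% of all probe sets higher, and a median of 0.07. Groups without overlap numbered 30 higher and 9 lower, against 24.0% and 20.8% of all probe sets. Relative to this single control, Mrpl18, Mrpl10 and Mrps14 differed by 0.36, 0.35 and 0.49, and Mrps18b and Mrpl2 by 0.45 and 0.22, at least as much as against all 4. The other 6 of the 11 genes without overlap had smaller differences there. Mrpl50 differed by 0.24 in place of 0.47, Mrps15 by 0.14 in place of 0.28 and Mrps6 by 0.14 in place of 0.23. Mrpl41 differed by 0.12 in place of 0.24, Mrpl36 by 0.075 in place of 0.20 and Mrps5 by 0.10 in place of 0.17. The array medians were 4.03 to 4.04 in wild type and 3.99 to 4.01 in transgenic fat. Shifting the arrays to a common median gave 73 of 77 genes higher, where 67.1% of all probe sets were then higher, and 34 higher and 0 lower without overlap, against 20.1% and 1.41%.

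**Figure D4:**
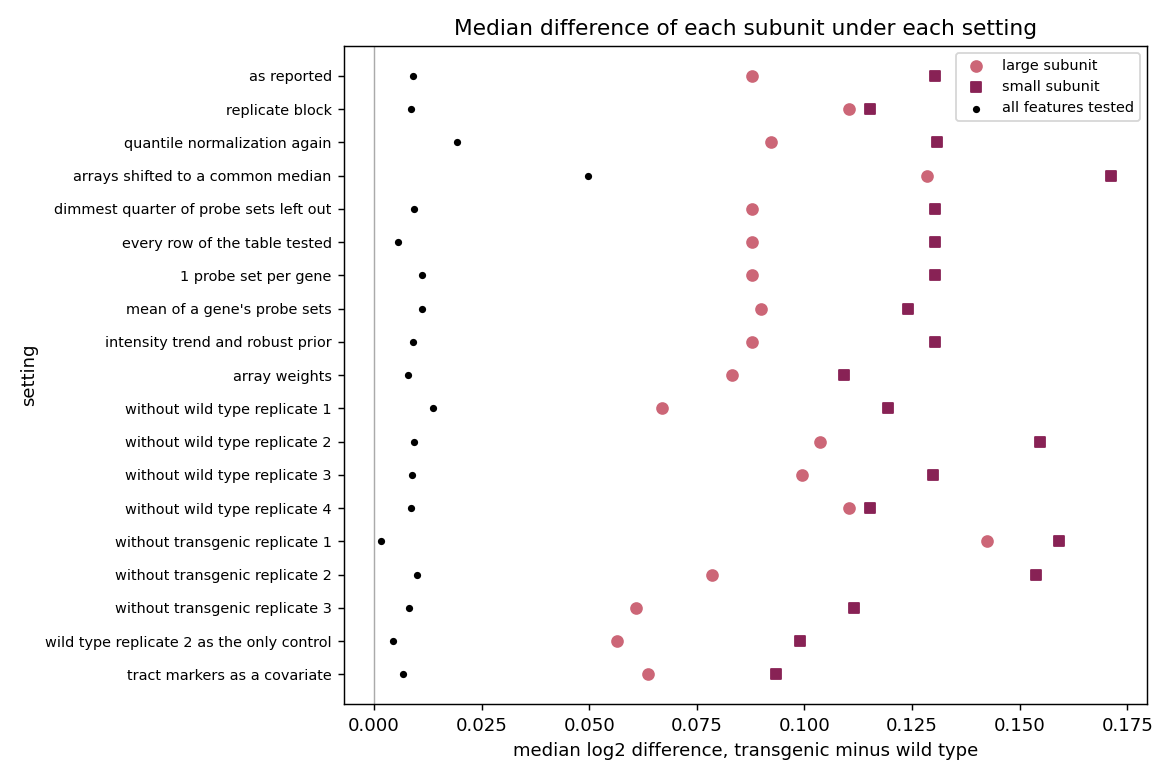
Median log2 difference of the large subunit (circles), the small subunit (squares) and all features tested (dots) as reported and under 18 other settings. Both subunits lie above 0 under each setting, from 0.06 to 0.14 for the large and from 0.09 to 0.17 for the small subunit. Leaving out dim probe sets, every row, 1 probe set per gene and the trended prior leave each gene's difference unchanged. The subunit medians could not move under those settings. The replicate block gives the same medians as leaving out wild type replicate 4.

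Many values were exactly equal between libraries. In 56 of the 77 genes at least 2 libraries shared a value to the last deposited digit, and in 32 at least 3 did, against 69.5% and 46.9% of all probe sets for these 2 counts. The shared value was in each of the 56 genes the gene's median over the libraries. Mrpl3, Mrpl24, Mrpl42 and Mrps9 had 1 value in 5 of 7 libraries, and differences of 0.00, 0.01, -0.00 and 0.03. Such ties count as overlap in the counts above.

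Of the 77 genes, 8 had a second probe set, and 6 of these pairs had differences of the same sign. Mrpl41 differed by 0.24 and 0.13, Mrps5 by 0.17 and 0.03 and Mrpl27 by 0.16 and 0.12 on the brighter and the dimmer probe set. For Mrpl41 and Mrps5 the groups overlapped on the dimmer probe set only, and for Mrpl27 on the brighter only. The signs differed for Mrpl47 and Mrps36, whose differences were 0.06 or less in size. Whether either probe set of a pair reads a near-identical copy elsewhere in the genome was not tested. Mrpl46 and Mrps11 are the only 2 of the genes that are next to each other among protein-coding genes in the RefSeq table, and they differed by -0.01 and 0.08.

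Other parts of the mitochondrial translation system were set beside the ribosome, and 0 of their genes passed a limma adjusted p of 0.05. Of 4 ribosomal proteins with other symbols 3 were higher, with Dap3, a GTP-binding protein of the small subunit, at 0.13, Ptcd3 at 0.28 and Chchd1 at -0.03. Without transgenic replicate 3 Ptcd3 differed by 0.092 and Dap3 by 0.042, and Dap3 by 0.035 without wild type replicate 1. Among 24 genes of ribosome assembly and rRNA modification 18 were higher with a median of 0.08. The GTPase Noa1 differed by 0.25 without overlap and Mtg2 by -0.05. Translation factors were higher in 13 of 14 genes with a median of 0.13. The elongation factors Tufm and Tsfm differed by 0.25 and 0.26, and Lrpprc, which stabilises mitochondrial messengers, by -0.15. Genes of mitochondrial DNA transcription and replication, listed together with some of mitochondrial RNA processing and decay, were higher in 14 of 15 with a median of 0.13. The RNA helicase Supv3l1, of smallest p, differed by 0.18, with Tfam at 0.05 and Twnk at -0.03. Import genes were higher in 25 of 26 with a median of 0.15, with Timm23 at 0.36 and Tomm70a at -0.01. At an unadjusted p under 0.05 these 5 lists held 0, 3, 2, 2 and 6 genes, all higher, of 4, 24, 14, 15 and 26 measured, where 4.82% of all probe sets were higher and 3.12% lower. Against wild type replicate 2 alone the differences were smaller for Tufm (0.13), Tsfm (0.16), Supv3l1 (0.066) and Timm23 (0.16), and Tufm differed by 0.15 without transgenic replicate 3. The signs of Chchd1 and Twnk turned both when arrays were quantile normalized again and when they were given a common median. That of Tomm70a turned with common medians and with array weights.

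Transcriptional regulators of mitochondrial genes had a higher mean about as often as all probe sets. Of 15 measured, 7 were above wild type in the mean and 8 below, so 46.7% were higher, against 53.6% of all probe sets. Their median difference was -0.01. At an unadjusted limma p under 0.05, 1 gene was higher and 0 lower, against 4.82% and 3.12% of all probe sets. Ppargc1a, the coactivator of mitochondrial biogenesis, read 3.65, 4.31, 4.19 and 4.26 in wild type and 4.13, 4.13 and 3.95 in transgenic fat. Its groups overlapped, and the difference of -0.03 (SE 0.17) turned to 0.01 with either rescaling of the arrays. Nrf1, whose motif is counted above, differed by -0.09 and Pparg, the regulator of adipocyte differentiation, by 0.46, with wild type replicate 2 within the transgenic range and a difference of 0.03 against that library alone.

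Respiratory chain and cytosolic ribosomal protein genes give the range within which these values lie. Of 78 genes for respiratory chain and ATP synthase subunits 73 were higher, with a median of 0.22, and 23 had groups without overlap, all higher, where 3.38% of all probe sets were higher and 2.44% lower in this way. Of 61 cytosolic ribosomal protein genes 53 were lower, with a median of -0.11, and 1 was higher and 8 lower without overlap. The library pattern of the mitochondrial ribosome was shared: the respiratory chain genes had medians, relative to each gene's mean, of -0.17 in the first wild type and 0.24 in the third transgenic library, the import genes -0.11 and 0.24, and the cytosolic ribosomal protein genes 0.11 and -0.10. The adipocyte markers had -0.54 and 0.28 in these libraries. In wild type replicate 2 the adipocyte markers stood at 0.16 and the large and small subunits at -0.00 and -0.01. The median difference between genotypes was 0.40 for the adipocyte markers and 0.11 for the 77 genes, so these lists differ in scale. The part of adipocyte content in the difference of the ribosomal genes was not tested.

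**Figure D5:**
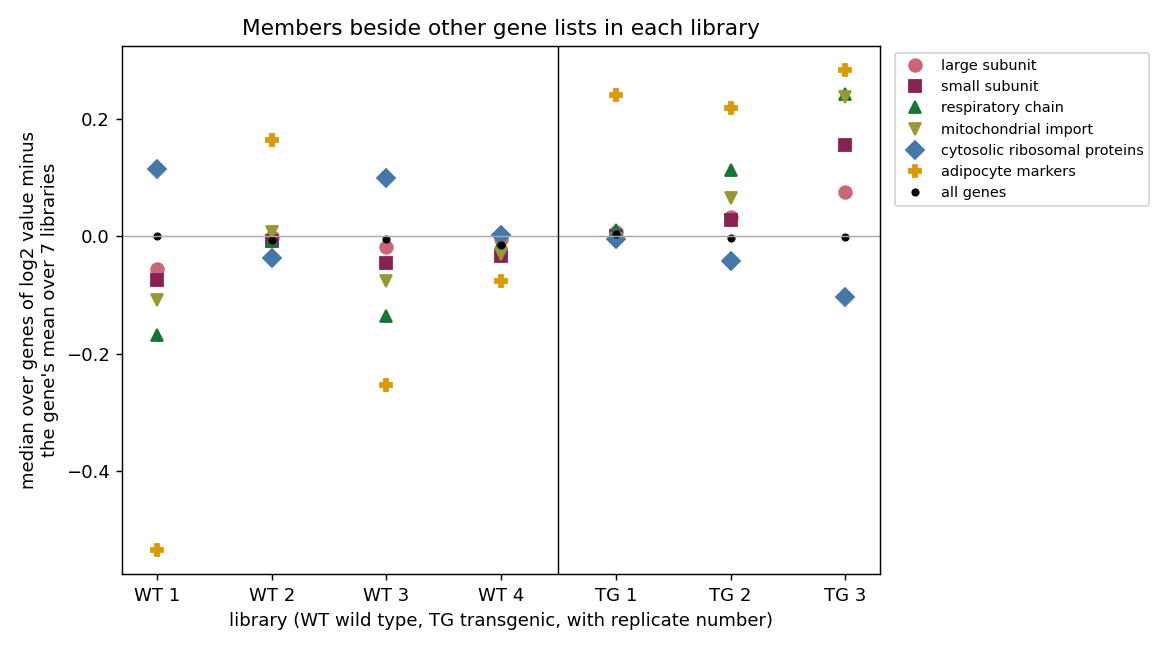
Median over the genes of each list of the log2 value minus the gene's mean over 7 libraries, for both subunits and 4 other lists and for all genes, by library. Both subunits are lowest in the first wild type library and highest in the third transgenic one, and the cytosolic ribosomal proteins lie on the other side of 0 in these libraries.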

How the data were processed

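The authors deposited log2 expression values, made with RMA per the submitters' processing notes; the sources used here do not give its version or the genome build. RMA as usually run brings arrays to a common distribution, so that a shift shared by all genes is removed. Of 35556 probe sets, 21789 had exactly 1 symbol in the platform annotation (19938 genes), 1621 several and 12146 none or no listing. All 7 columns were used. All 77 genes matched RefSeq by Entrez identifier, and 0 symbols differed.

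Differences were fitted on the 21789 probe sets in R 4.3.3 by limma 3.58.1 with genotype as the only term (lmFit, eBayes, two-sided), with Benjamini-Hochberg adjustment at 0.05. Single genes were also tested by an exact two-sided permutation test of the difference of means. Lists are described by counts and medians and were not tested. The genes and lists were chosen with earlier results of these data known. Named genes were, per subunit, the 5 of smallest p that were higher and 3 that were lower (only Mrps25 was lower in the small subunit), the extremes of difference and of wild type range, Mrpl12, Mrps12, Mrps30 and the Mrps18 genes, and, per list, the gene of smallest p in each direction, with Ppargc1a, Tfam, Tufm, Dap3, Xbp1 and Fabp4. The fit was tested on simulated arrays. Same-numbered wild type and transgenic samples deviated from their group means with correlations of -0.139, -0.0946 and 0.0577, so the numbers were not taken as pairs. Alternatives were a replicate block, renormalization, common medians, dim probe sets left out, every row, 1 probe set or the mean per gene, a trended robust prior, a threshold of 0.1, array weights (statmod 1.5.0), each library left out, control values from wild type replicate 2 alone, an epididymal marker covariate and subunits by place. Figures used Python 3.11.15, pandas 2.3.3 and matplotlib 3.10.9. The number of arrays limits the precision.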

Additional observations from a re-analysis of the deposited data

Results flagged for a closer look

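In 6 of 46 results examined, 1 wild type library lay far from the other 3, judged by the gap to the nearest library as a share of the whole wild type range. For Mrpl33 the share was 1, with wild type replicate 1 at 5.68 and the others all at 5.54. For Mrps18c it was 0.8579, with replicate 1 at 7.34. Lrpprc (0.9795, replicate 4 highest), Twnk (0.9756, replicate 2 highest), Acta2 (0.8681, replicate 2 lowest) and Spink8 (0.9029, replicate 2 lowest) had the same feature. Chance puts about 1 in 20 groups past the critical value, but 23.3% of all probe sets were past it here, and exactly equal values between libraries, as in Mrpl33 and Twnk, were frequent.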

How the results depend on the processing

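Under 18 alternative settings 0 of the 77 genes passed the test, with smallest limma adjusted p-values from 0.0969 to 0.817, and both subunit medians stayed above 0. Leaving out 1 library at a time gave medians of 0.061 to 0.14 for the large and 0.11 to 0.16 for the small subunit. It gave 62 to 67 genes higher, 13 to 24 genes without overlap, and 0 called. Of all probe sets, 4.06% to 8.23% were then higher and 2.68% to 6.21% lower without overlap. Without wild type replicate 2, 91 of all probe sets passed, none of them among the 77, and without transgenic replicate 1 the large subunit median was 0.14. Genes without overlap numbered 34 after shifting to a common median and 24 without transgenic replicate 1, all of them higher. Against wild type replicate 2 alone they numbered 39, of which 30 were higher and 9 lower, where fewer samples make overlap rarer. Of all probe sets, 20.1% were higher and 1.41% lower without overlap after shifting. These shares were 8.17% and 6.21% without transgenic replicate 1, and 24.0% and 20.8% against wild type replicate 2 alone. The replicate block, which leaves wild type replicate 4 a level of its own, gave medians of 0.11 and 0.12 and 67 genes higher. Leaving out wild type replicate 4 gave the same medians and count. Same numbers were not taken as paired samples. Leaving out dim probe sets, every row, 1 probe set per gene and the trended prior could not move the subunit medians.
Signs turned for Ppargc1a (0.022 with the block, 0.010 after quantile normalization, 0.011 after shifting, 0.0061 with probe sets averaged), Chchd1 (0.0039 and 0.012), Mrps25 (0.0012 and 0.0022) and Twnk (0.0065 and 0.010) under those 2 scalings, Dcn (-0.0072) under the first, and Tomm70a (0.027 after shifting, 0.0087 with array weights). Against wild type replicate 2 alone they turned for Dcn (-0.17), Fabp4 (-0.0097), Mrps18c (-0.0014), Mrps30 (-0.41), Spink8 (0.32) and Tfam (-0.014), and with the epididymal covariate for Dcn (-0.14) and Mrps30 (-0.38). Leaving out 1 library, signs turned within ranges of -0.034 to 0.095 for Dcn, -0.020 to 0.15 for Mrps18c, -0.056 to 0.12 for Tfam, -0.057 to 0.019 for Chchd1, -0.18 to 0.039 for Ppargc1a, -0.094 to 0.012 for Mrps25, -0.019 to 0.28 for Mrps30 and -0.11 to 0.013 for Mtg2. The cause was not tested. Groups of 4 and 3 arrays limit what can pass.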
